A study of Mus musculus with 6 samples.

Results

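*Sox10*, *Egr2*, *Pou3f1*, *Ngfr*, *S100b*, *Gfap*, *Scn7a*, *Cdh19*, *L1cam* and *Ncam1* are transcription factors and surface or cytoplasmic markers of Schwann cells, the glia of peripheral nerves, outside the myelin proteins. They were chosen by symbol and are 10 of the 55341 genes in the deposited count table. All 10 were in the table, and 9 of them passed the filter on few counts and were tested among 16017 genes. *Gfap* did not pass and is given by its counts.

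RNA was sequenced from aortic vessels of 3 miRNA-26b-/- mice (libraries M2626, M2627 and M2628) and 3 miRNA-26b+/+ mice (M2629, M2630 and M2631), 1 library per mouse. All were 8 weeks old and ate chow. The deficient mice carry a deletion of the miRNA-26b coding part inside an intron of *Ctdsp1*, made by homologous recombination in R1/E (129/Sv) embryonic stem cells and completed with tamoxifen through CreERT2, which was then bred out. The labels give C57BL/6NCrl for all 6 mice, while the methods give both a mixed 129/Sv-C57BL/6 and a C57BL/6 background. The dissected tissue was the arch and the thoracic part after perfusion with buffered saline, and the labels instead name endothelial cells. Smooth muscle genes were abundant in every library, with *Acta2* between 14190 and 18290 CPM (counts scaled to the size of each library). The row of *Mir26b* held 0 counts in 5 libraries and 20 in M2630, too few to check the genotype. The libraries held 25706728 to 33345037 counts assigned to genes, and 1 count in a library corresponds to 0.0298 to 0.0390 CPM.

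Schwann cells descend from the neural crest and ensheath the axons of peripheral nerves, either with myelin around a single large axon or, as Remak cells, in a bundle of thin axons without myelin. *Sox10* holds the lineage from the crest onwards, *Pou3f1* (Oct6) marks the promyelinating stage, and *Egr2* (Krox20) drives the myelin genes. Cells that do not myelinate keep *Ngfr*, *L1cam*, *Ncam1* and often *Gfap*, and the sympathetic fibres in the outer layer of an artery are mostly of this kind. In whole tissue, fewer Schwann cells and less RNA per cell cannot be told apart.

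The microRNA that the mice lack and its match in the 3′ UTRs of these genes are shown first, since a seed match is the feature that links a transcript to the microRNA by sequence. The mature miRNA-26b-5p is encoded on the forward strand at chr1:74394324-74394344 (RefSeq, GRCm38.p6), and its seed, bases 2 to 8, is in capitals.
miRNA-26b-5p: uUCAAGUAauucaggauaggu
In the longest annotated 3′ UTR of each gene (GENCODE M21), sites complementary to the seed with 7 or 8 bases were searched. Of the 10 genes, *Scn7a* alone had one, a match to bases 2 to 7 followed by an A, at bases 1039 to 1045 of its UTR of 2073 bases. The site is in capitals below.
Scn7a 3′ UTR: aactggccACTTGAAaggtct
Over all 20998 genes searched, 3845 (18.3%) had such a site, and 880 (4.19%) had one of 8 bases. A match is a description of the letters and not evidence of binding.

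RefSeq promoters, from 250 bases before to 50 after the start, were on hand for 6 of the 10 genes. They were searched on both strands for the letters bound by SOX factors (the letters ACAAAG, the variant ACAATG, and with another first letter the forms TCAAAG and also TCAATG) and by EGR factors (GCGNGGGCG), because *Sox10* and *Egr2* are of those families. The SOX letters were in 44% of all 32851 promoters and the EGR letters in 5.55%. The promoters of *Scn7a* and *S100b* are printed as 1 example of each motif, from the more abundant of the genes with a match. The match of *Scn7a*, in capitals, reads GCGNGGGCG on the opposite strand and starts 125 bases before the start of transcription, in chr2:66784861-66785160 on the reverse strand (GRCm38.p6).
Scn7a promoter: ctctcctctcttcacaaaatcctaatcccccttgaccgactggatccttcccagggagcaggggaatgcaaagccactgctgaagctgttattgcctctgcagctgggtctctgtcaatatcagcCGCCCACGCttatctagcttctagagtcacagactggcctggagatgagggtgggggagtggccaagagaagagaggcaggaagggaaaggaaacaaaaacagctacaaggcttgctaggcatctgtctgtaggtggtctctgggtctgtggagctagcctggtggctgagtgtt
The match of *S100b* is a SOX one, 77 bases before the start, in chr10:76253586-76253885 on the forward strand.
S100b promoter: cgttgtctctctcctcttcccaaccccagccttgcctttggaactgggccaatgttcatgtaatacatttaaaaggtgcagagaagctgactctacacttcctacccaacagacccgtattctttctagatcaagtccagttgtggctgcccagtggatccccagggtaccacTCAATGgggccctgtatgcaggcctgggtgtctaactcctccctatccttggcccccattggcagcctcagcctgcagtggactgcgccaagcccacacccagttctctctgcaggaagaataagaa
The promoter of *Gfap* held SOX letters 138 and 15 bases before the start. Those of *Egr2*, *Ngfr* and *L1cam* held neither motif. *Sox10*, *Pou3f1*, *Cdh19* and *Ncam1* had no entry.

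Per kilobase of exon, *Ncam1*, a cell adhesion molecule that muscle and nerve also make, had the highest level of the 10 genes, with a mean of 31.0 CPM per kb and a range of 22.99 to 35.1 over the 6 libraries. Its lowest library lay above the highest of any other member. *S100b* (6.51 CPM per kb) and *Scn7a* (6.27) followed, and their ranges overlapped. *L1cam* (2.02), *Cdh19* (1.90), *Ngfr* (1.88), *Egr2* (1.64) and *Sox10* (1.57) formed a middle group whose ranges also overlapped. *Ngfr* spanned 0 to 9.71 CPM per kb in that group, the widest range, and *L1cam* spanned 0.622 to 3.47. *Pou3f1* (0.182) and *Gfap* (0.110) were the least abundant and had no count in 3 libraries each. Between neighbours in this order, the gap was larger than the spread between libraries only for *Ncam1* and *S100b*, as the plot of levels per length shows.

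**Figure D1:**
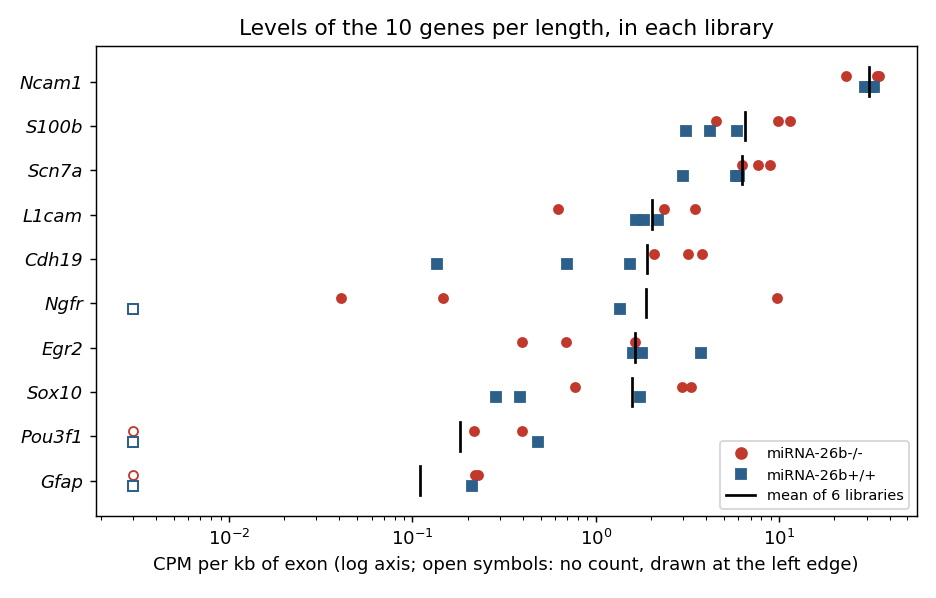
CPM per kb of exon on a log axis for each of the 10 genes (rows) in each of the 6 libraries, with circles for miRNA-26b-/-, squares for miRNA-26b+/+ and a bar for the mean of all 6; open symbols mark libraries with no count. Ncam1 lies at 22.99 to 35.1 CPM per kb, apart from the rest, while the ranges of L1cam, Cdh19, Ngfr, Egr2 and Sox10 overlap.

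Of the 9 genes tested, 7 were higher and 2 were lower in miRNA-26b-/- mice, with a median log2 fold change of 0.64 against 0.01 over all genes tested, of which 51.4% were higher. With edgeR's quasi-likelihood test and Benjamini-Hochberg adjustment over all genes, none of these genes (0 of 9) reached an adjusted p-value under 0.05, where 0.00624% of all genes tested did. DESeq2, limma voom and the earlier quasi-likelihood method of edgeR also passed 0 of them, though DESeq2 gave *Ngfr* no p-value. At an unadjusted p-value under 0.05, 4 were higher (*Cdh19*, *Scn7a*, *Ngfr* and *Sox10*), where 3.40% of all genes tested were called higher. Of the others, 1 was lower (*Egr2*), where 3.07% were called lower. In 2 genes, *Scn7a* and *Cdh19*, every miRNA-26b-/- library lay above every miRNA-26b+/+ library, and the libraries of the genotypes did not overlap in 11.5% of all genes. DESeq2, limma voom and the earlier edgeR method called 2 genes higher, *Cdh19* and *Scn7a*, and 0 lower. With 1 library left out, 2 genes were called higher without M2627 (*Cdh19* and *S100b*) and without M2631 (*Cdh19* and *Sox10*). Without M2629 or M2630 the 2 were *Cdh19* and *Scn7a*. The groups did not overlap in 4 genes without M2626 or M2629 and in 5 without M2628. Fewer libraries make overlap rarer, and the share over all genes was not computed for these settings. The exact permutation test of a single gene with 3 against 3 libraries cannot give a two-sided p below 0.1.

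**Figure D2:**
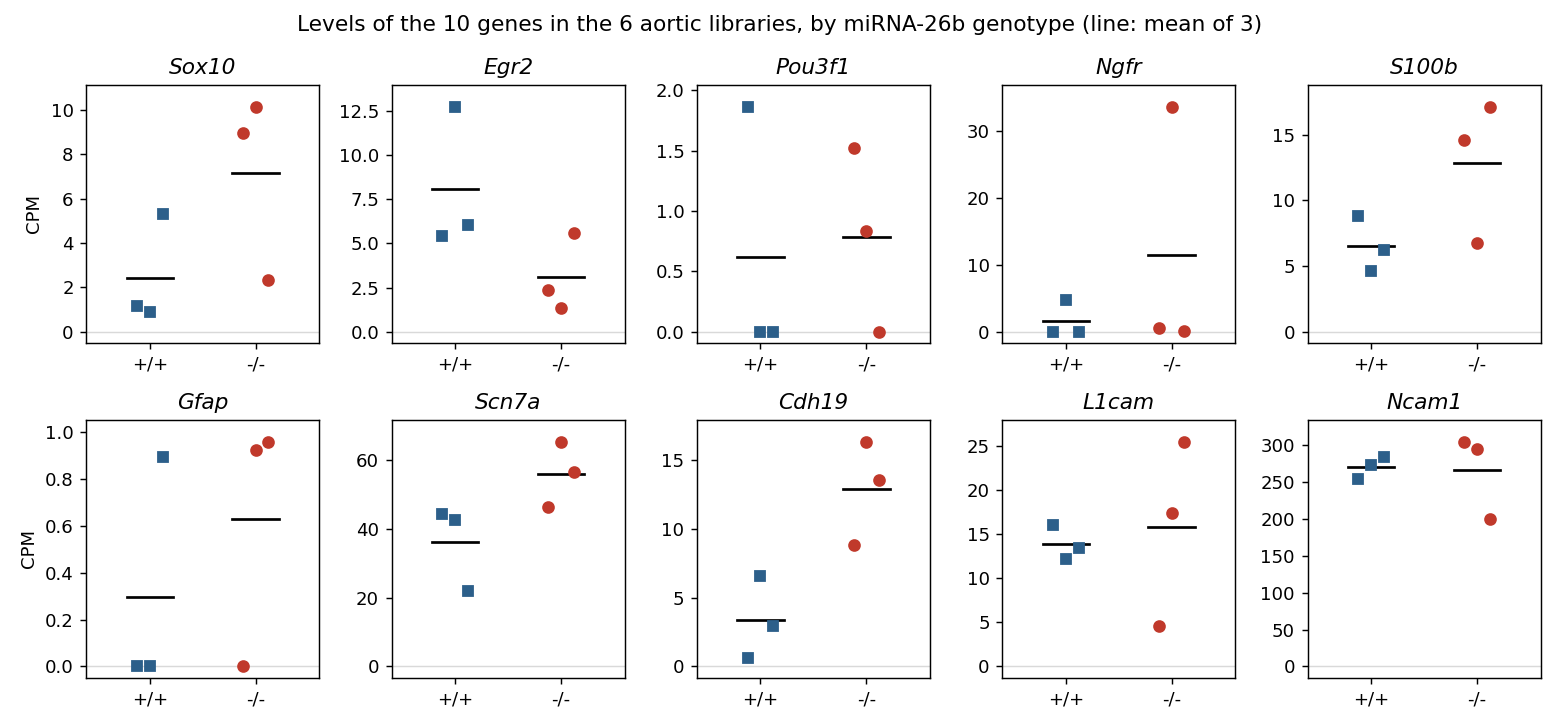
CPM (y axis, from 0 and scaled per gene) of each of the 10 genes in the 3 miRNA-26b+/+ libraries (squares) and the 3 miRNA-26b-/- libraries (circles), with a line at the mean of each group. The points of the genotypes are apart in Scn7a and Cdh19 and overlap in the other 8 genes, and 1 library (M2627) sets the level of Ngfr.

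*Cdh19*, a cadherin of Schwann cell precursors and mature Schwann cells, showed the clearest difference. It lies on chr1:110888326-110977584 on the reverse strand (GRCm38), with 12 exons in its longest transcript. It measured 8.86 CPM in M2626, 16.3 in M2627 and 13.6 in M2628, and 0.587 in M2629, 6.55 in M2630 and 2.97 in M2631. All deficient libraries were above all controls, and the lowest level by far was in M2629, with 18 counts. The means were 12.9 ± 3.77 and 3.37 ± 3.001 CPM (SD, n = 3 each). This is a log2 fold change of 2.01 (SE 0.557), with an adjusted p-value of 0.731 from edgeR (unadjusted 0.00267). Its unadjusted p-value stayed under 0.05 with the other normalizations and filters, DESeq2, limma voom and the earlier edgeR method. With 1 library left out, it was under 0.05 in 6 of 6 edgeR fits, at log2 fold changes from 1.49 to 2.89. The lowest came without M2629 and the highest without M2630.

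*Scn7a* encodes the sodium channel Nax, found in non-myelinating Schwann cells and in glia that sense sodium. It lies on chr2:66673425-66784914 on the reverse strand and has 25 exons. It measured 46.1, 65.1 and 56.4 CPM in M2626, M2627 and M2628, and 44.2, 42.6 and 21.9 CPM in M2629, M2630 and M2631. The groups did not overlap, though the nearest libraries, M2626 and M2629, were 46.1 and 44.2 CPM. The means were 55.9 ± 9.49 and 36.2 ± 12.4 CPM (SD, n = 3 each). *Scn7a* had a log2 fold change of 0.64 (SE 0.255), with an adjusted p-value of 0.736 from edgeR (unadjusted 0.0249). Without M2627 it was 0.51 and without M2631 it was 0.36, and edgeR's unadjusted p-values rose to 0.099 (adjusted 0.862) and 0.138 (adjusted 0.983).

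*Sox10*, the lineage factor of all Schwann cells, measured 8.98, 10.1 and 2.34 CPM in M2626, M2627 and M2628, and 1.17, 0.873 and 5.29 CPM in M2629, M2630 and M2631. It lies on chr15:79154908-79165240 on the reverse strand, with 5 exons. M2628 was low among the deficient libraries and M2631 high among the controls, so the groups overlapped. *Sox10* had a log2 fold change of 1.54 (SE 0.718), with an adjusted p-value of 0.767 from edgeR (unadjusted 0.0486). The call was lost without M2626, M2627, M2629 or M2630, each alone, at log2 fold changes of 1.39, 1.15, 1.19 and 1.18. It was also lost with no filter on few counts (edgeR, unadjusted p = 0.0515, adjusted 0.943) and with filterByExpr (unadjusted p = 0.054, adjusted 0.817), at 1.55 and 1.54. Without M2628 it was 1.95, and without M2631 it was 2.80. With M2626 and M2627 both left out, it was -0.09.

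*Egr2*, the factor that turns on myelin genes in Schwann cells and is also an immediate early gene of many other cells, was the 1 member called lower. It lies on chr10:67535475-67542188 on the forward strand. It measured 2.34, 1.34 and 5.56 CPM in M2626, M2627 and M2628, and 5.44, 12.7 and 6.05 CPM in M2629, M2630 and M2631. M2628 was slightly above the lowest control, and M2630 was above all others. The log2 fold change was -1.40 (SE 0.619), with an adjusted p-value of 0.747 from edgeR (unadjusted 0.0393). The call was lost without M2626, M2627 or M2630, at -1.28, -0.98 and -0.93. *Junb* was the 1 immediate early gene of 12 called at an unadjusted p-value under 0.05. It was lower, as 3.07% of all genes tested were at that threshold. *Junb* had the same lowest pair of libraries as *Egr2* and the same highest, with 26.4, 27.6 and 58.2 CPM in the deficient and 58.0, 85.2 and 52.4 CPM in the control libraries. Of these 12 genes, 6 were higher and 6 lower, M2626 and M2627 were lowest in 3, and the control M2631 was lowest in 7. Their summed level was 1267 to 1520 CPM in miRNA-26b-/- and 893 to 2226 CPM in miRNA-26b+/+ mice. Their part in the level of *Egr2* was not tested.

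*Pou3f1*, a POU factor that appears before *Egr2* in the myelinating lineage, measured 1.52, 0.834 and 0 CPM in the deficient and 1.86, 0 and 0 CPM in the control libraries. No genotype was higher throughout, and 3 libraries had no count, which allows up to 3 counts or about 0.102 CPM. The log2 fold change was 0.25 with an SE of 1.53, and it changed sign without M2630 (-0.28) or M2631 (-0.36). The gene is a single exon at chr4:124656807-124660655, and 330 of its bases (8.57%) lie in an antisense gene, *Gm2164*, whose reads the counting without strand adds to it.

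*Ngfr* encodes the neurotrophin receptor p75, found on non-myelinating Schwann cells and on sympathetic neurons. It lies on chr11:95568818-95587735 on the reverse strand. It measured 0.507, 33.5 and 0.142 CPM in M2626, M2627 and M2628, and 0, 4.66 and 0 CPM in M2629, M2630 and M2631, or 13, 1124 and 4 counts against 0, 128 and 0. Each genotype had 1 high library, M2627 and M2630, and the other 4 held 13 counts at most. The log2 fold change of 3.11 (SE 1.33) had an adjusted p-value of 0.740 from edgeR (unadjusted 0.0333) and rested on those libraries. Without M2627, or without M2630, the gene failed the filter and was not tested. Without M2629 it was 2.49 and without M2631 2.497, and both lost the call. DESeq2 gave *Ngfr* no p-value, and limma voom and the earlier edgeR method did not call it. M2627 and M2630 were also the libraries with *Th* (37.0 and 3.57 CPM, 0 in the other 4) and *Dbh* (86.1 and 15.0 CPM, 0 in the other 4), the enzymes that define noradrenergic neurons. *Slc6a2*, the noradrenaline transporter, measured 112.7 CPM in M2627 and 5.90 to 14.6 CPM in the other 5. *Slc18a2*, *Tubb3*, *Snap25* and *Npy* were also highest in M2627, at 25.2 to 49.9 CPM. Of 20 sympathetic neuron genes, 18 were tested, 17 were higher, and their summed level was 104 to 677 CPM in miRNA-26b-/- and 123 to 201 CPM in miRNA-26b+/+ mice. At an unadjusted p-value under 0.05, 8 were called higher, where 3.40% of all genes tested were. The genotypes overlapped in all 18, and the median log2 fold change was 2.45. M2627 and M2630 were the highest libraries in 10 of the 18. M2627 and M2630 were also the highest libraries in all 6 cardiac muscle genes tested, with summed levels of 375.2 and 321.7 CPM against 20.5 to 77.6 CPM in the other 4. The same was true of 9 of 10 adipocyte genes, with summed levels of 2730 and 1935 CPM. The part of these cells in the level of *Ngfr* was not tested.

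*S100b*, a calcium-binding protein of Schwann cells that adipocytes also make, lies on chr10:76253853-76261159 on the forward strand. It measured 14.6, 6.73 and 17.1 CPM in the deficient and 8.77, 4.62 and 6.21 CPM in the control libraries. M2627 was the low deficient library, below the control M2629. The means were 12.8 ± 5.40 and 6.53 ± 2.09 CPM (SD, n = 3 each). The log2 fold change was 0.92 (SE 0.459), with an adjusted p-value of 0.769 from edgeR (unadjusted 0.0635). Without M2627 it was 1.27, with an adjusted p-value of 0.857 from edgeR (unadjusted 0.0115). The summed level of 10 adipocyte genes was 1380, 2730 and 943 CPM in the deficient and 1318, 1935 and 734 CPM in the control libraries, and their part in the level of *S100b* was not tested.

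*Gfap*, the intermediate filament of astrocytes and of non-myelinating Schwann cells, had 0, 31 and 27 counts in M2626, M2627 and M2628, and 0, 0 and 27 in M2629, M2630 and M2631. These are at most 0.956 CPM, and libraries with and without counts were found in both genotypes. The gene lies on chr11:102887336-102900912 on the reverse strand.

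The adhesion molecules *L1cam* and *Ncam1*, which axons and Remak cells share, had no clear difference. *L1cam* measured 4.57, 17.4 and 25.5 CPM in the deficient and 16.0, 12.2 and 13.4 CPM in the control libraries. Its deficient libraries spread on both sides of the controls, with M2626 the lowest of all 6 and M2628 the highest. Its log2 fold change was 0.21 (SE 0.434), and it was -0.26 without M2628. *Ncam1* measured 304.0, 295.2 and 199.2 CPM in the deficient and 254.2, 273.6 and 283.8 CPM in the control libraries. M2628 was low, and the other 5 libraries lay between 254.2 and 304.0 CPM. Its log2 fold change was -0.02 (SE 0.164), 0.15 without M2628 and 0.004 without M2631. *L1cam* shares 100 exonic bases (1.36%) with *Arhgap4* and *Ncam1* 417 (4.81%) with the antisense gene *Gm11149*, and reads there were counted for both.

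**Figure D3:**
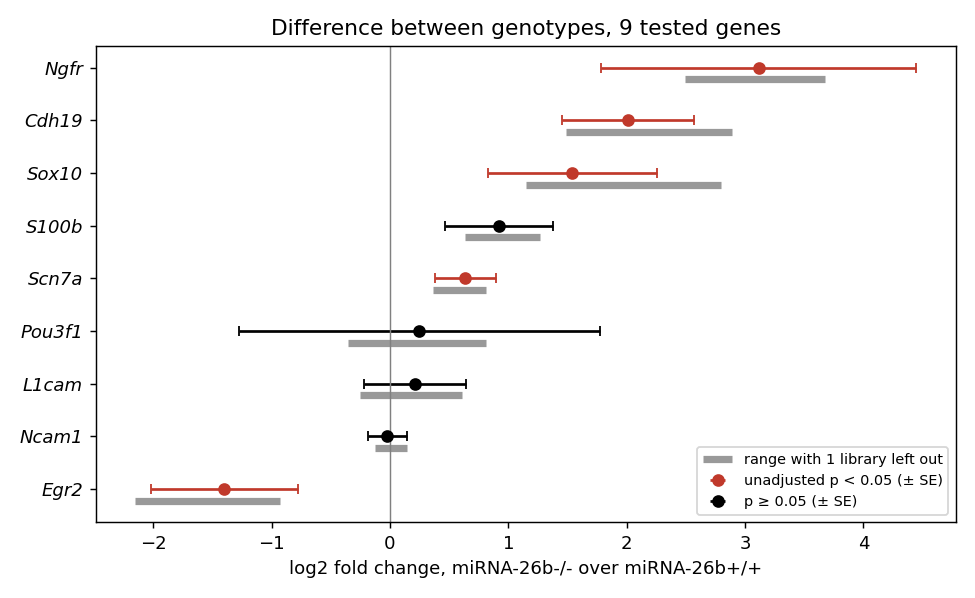
Log2 fold change between genotypes (x axis) with its standard error for the 9 genes tested, ordered by size; grey bars give the range when 1 library is left out. Cdh19 lies between 1.49 and 2.89 in all leave-one-out fits, while the bars of Pou3f1, L1cam and Ncam1 cross 0, and for Ngfr the bar covers the 4 fits in which it was tested.

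The levels of the 10 genes did not follow 1 order of libraries. Averaged over the 9 tested genes as z-scores of log2(CPM + 0.5), the mean was 0.16, 0.51 and 0.06 in M2626, M2627 and M2628, and -0.21, -0.13 and -0.38 in M2629, M2630 and M2631. M2627 was highest for *Sox10*, *Ngfr*, *Scn7a* and *Cdh19* but lowest for *Egr2*. Summed CPM, led by *Ncam1*, was 321 to 447 in miRNA-26b-/- and 332 to 358 in miRNA-26b+/+ mice, so the sum overlapped.

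**Figure D4:**
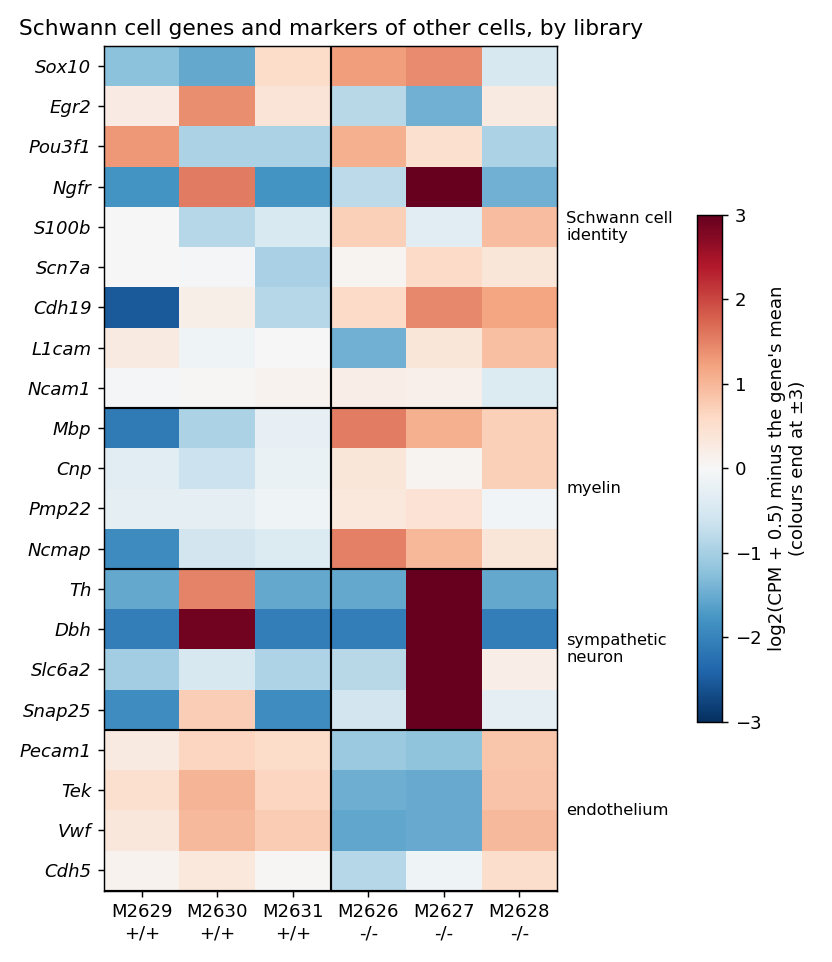
Log2(CPM + 0.5) minus the mean of each gene over the 6 libraries (colour, ending at 3 in both directions) for the 9 tested genes, 4 myelin genes, 4 sympathetic neuron genes and 4 endothelial genes, with the miRNA-26b+/+ libraries left of the line. Ngfr shares its high libraries, M2627 and M2630, with Th and Dbh, and Cdh19 shares its lowest, M2629, with Mbp.

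Other genes of the Schwann lineage were read from lists of regulators, receptors, further Schwann cell genes and myelin. Of 16 other regulators, 13 were tested, and 6 were higher and 7 lower. At an unadjusted p-value under 0.05, 1 was called higher, where 3.40% of all genes tested were. This was *Sox2*, which passed the filter through deficient libraries alone, so the call is not independent of the filter. *Sox2*, the factor of immature and repair Schwann cells, had 31, 82 and 1 counts in the deficient and 0 in each control library. The mean of the deficient libraries was 12.01 times a floor of 3 counts per library, and M2628 lay below that floor. *Jun*, another repair factor, measured 275.8, 280.4 and 189.6 CPM in the deficient and 203.7, 279.4 and 193.2 CPM in the control libraries. The genotypes overlapped in *Jun*.

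Of 19 receptors and ligands, 18 were tested, and 12 were higher and 6 lower. At an unadjusted p-value under 0.05, 3 were called higher and 1 lower, where 3.40% and 3.07% of all genes tested were. Among those called higher, 1 (*Gfra1*) passed the filter through deficient libraries alone. *Erbb3*, the neuregulin receptor on which Schwann cells depend, measured 7.53, 8.04 and 4.603 CPM in the deficient and 0.848, 3.46 and 1.78 CPM in the control libraries. *Gfra1*, a receptor for the neurotrophic factor GDNF, had a log2 fold change of 3.34 (SE 1.21). *Lgi4*, a secreted protein that Schwann cells need for myelination, measured 13.2, 18.0 and 24.1 CPM in the deficient and 8.38, 8.84 and 10.7 CPM in the control libraries. In these 3 genes the groups did not overlap, which held for 11.5% of all genes tested in either direction. For *Gfra1*, neither the call nor this separation is independent of the filter. *Ednrb*, an endothelin receptor of the neural crest that other cells of the vessel also make, was lower in each deficient library (3.39 to 6.30 CPM) than in each control (9.06 to 11.2 CPM). None of the 4 passed the adjusted threshold in edgeR (adjusted p = 0.736 for each).

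Of 28 further Schwann cell genes, 26 were tested, and 20 were higher and 6 lower. At an unadjusted p-value under 0.05, 6 were called higher and 2 lower, where 3.40% and 3.07% of all genes tested were. Among those called higher, 2 passed the filter through deficient libraries alone. *Plekhb1* measured 15.6, 14.4 and 11.1 CPM in the deficient and 1.47, 8.37 and 4.66 CPM in the control libraries. *Cadm4*, an adhesion molecule between Schwann cell and axon, measured 8.90, 15.2 and 9.84 CPM against 0.456, 4.26 and 7.83 CPM. *Kcna2*, counted in this list though it is a potassium channel of myelinated axons, had a log2 fold change of 1.40 (SE 0.425). *Ptprz1*, a receptor phosphatase, was lower, with 183.2 to 271.1 CPM against 283.7 to 327.9 CPM, and *Itgb4*, a laminin receptor chain that other cells share, had a log2 fold change of -0.70 (SE 0.289). *Sorcs1*, a sorting receptor, was counted in M2626 (3.90 CPM) and M2627 (3.93 CPM) only. The deficient library M2628 had no count, like the controls, so the genotypes overlapped. It is 1 of the 2 that passed through deficient libraries alone, and its call is not independent of the filter.

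Of 20 myelin genes, 18 were tested, and 17 were higher and 1 lower. At an unadjusted p-value under 0.05, 10 were called higher, where 3.40% of all genes tested were. Among those called higher, 3 passed the filter through deficient libraries alone. *Mbp*, a protein of compact myelin, measured 97.8, 70.9 and 55.2 CPM in the deficient and 7.37, 17.2 and 28.1 CPM in the control libraries. Its level was lowest in M2629, as was that of *Cdh19*. *Cnp* and *Pmp22*, further myelin genes, had log2 fold changes of 0.79 and 0.47. *Ncmap* (2.57) is 1 of the 3 that passed through deficient libraries alone, so its call is not independent of the filter. *Mbp* did not pass after adjustment in edgeR (adjusted p = 0.102). With such genes included, the median log2 fold changes of the lists were -0.02 for the regulators, 0.19 for the receptors, 1.11 for the further genes and 1.40 for myelin, beside 0.64 for the 9 genes described above and 0.01 for all genes.

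Markers of other cells moved with some libraries. M2626 and M2627 were the lowest libraries in 5 of 8 endothelial genes. Their summed level, led by *Pecam1* and *Vwf*, was 498 and 527 CPM there, 1771 CPM in M2628 and 1228 to 1681 CPM in the controls. *Erg*, *Kdr* and *Cldn5* did not follow this order. In M2626 and M2627, *Erg* measured 75.3 and 59.2 CPM, against 62.1 to 79.4 CPM in the controls. *Kdr* measured 22.01 and 29.6 CPM there, against 19.9 to 31.8 CPM in the controls, and was lowest in M2628, at 8.82 CPM. *Cldn5* measured 16.1 and 27.75 CPM in M2626 and M2627, against 24.4 to 38.7 CPM in the controls. M2626 and M2627 were also lowest in 7 of 8 macrophage genes. *Tek*, an endothelial receptor, measured 22.8, 22.1 and 115.7 CPM in the deficient and 88.9, 129.4 and 101.0 CPM in the control libraries. It was the 1 endothelial gene of 8 called at an unadjusted p-value under 0.05. It was lower, as 3.07% of all genes tested were at that threshold. Without M2626 and M2627 together, the log2 fold changes were 2.05 for *Cdh19*, 0.64 for *Scn7a*, 1.37 for *S100b*, 0.87 for *L1cam*, -0.09 for *Sox10*, -0.52 for *Egr2* and -0.45 for *Ncam1*, and the remaining M2628 was assumed to vary like the control group. This fit holds 1 deficient library, so no calls are read from it, and the pair left out was chosen after seeing the data. M2627 and M2630, the libraries with the noradrenergic genes, were also left out together, a pair likewise chosen after seeing the data. The log2 fold changes were then 2.67 for *Cdh19*, 0.64 for *Scn7a*, 1.08 for *S100b*, 0.06 for *L1cam*, 0.78 for *Sox10*, -0.51 for *Egr2* and -0.10 for *Ncam1*. *Cdh19* and *S100b* were called at an unadjusted p-value under 0.05 in that fit, and *Scn7a*, *Sox10* and *Egr2* were not. The melanocyte genes *Dct*, *Tyr*, *Tyrp1* and *Mlana* had 0 counts in every library, while *Mitf* (15.0 to 27.5 CPM) and *Kit* (14.3 to 22.6 CPM), which other cells also make, were counted in all 6. *Pmel*, a pigment gene, measured at most 0.742 CPM in the deficient and 0.946 to 4.53 CPM in the control libraries. It passed the filter through control libraries alone, so this difference is not independent of the filter. *Aqp4*, a water channel of astrocytes, was counted in M2626 (1.41 CPM) and M2627 (2.05 CPM) only, and so passed the filter through deficient libraries alone. The cartilage genes *Col2a1* and *Matn1* were also at 0. Of 8 fast skeletal muscle genes tested, 5 passed the filter through deficient libraries alone, so their count of calls is not read. The summed level of the list was 8.50 to 96.3 CPM in miRNA-26b-/- and 2.68 to 13.2 CPM in miRNA-26b+/+ mice. The median log2 fold changes of further lists were 0.27 for 10 adipocyte genes, 0.18 for 6 cardiac muscle genes, -0.04 for 8 smooth muscle genes, 0.06 for 8 fibroblast genes and -0.17 for 8 macrophage genes. *Mylpf*, a light chain of fast muscle that passed the filter through deficient libraries alone, measured 3.55, 3.36 and 6.16 CPM there and 0 in the control libraries. The part of these other cells in the levels of the 10 genes was not tested.

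Among 11544 genes on none of the lists with a mean of at least 5 CPM, 76 had a Pearson correlation of at least 0.9 with the mean z-score of the 9 genes over the 6 libraries. The highest were *Tmem26* (0.987), *Asrgl1* (0.986), *Ppif* (0.986), *Tspan15* (0.984) and *Krba1* (0.981), followed by *Triqk*, *Eps8l2*, *Slc25a32*, *D330041H03Rik* and *Tm2d3* (0.973 to 0.980). These are descriptions over 6 libraries that share a genotype split. Since the mean z-score itself separates the genotypes, so do these genes: *Tmem26* measured 6.09 to 11.7 CPM in the deficient and 3.67 to 5.05 CPM in the control libraries.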

How the data were processed

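Reads were aligned by the authors to GRCm38 (mm10) using STAR. The deposited raw counts come from featureCounts 1.6.4 over exons of GENCODE M21 (release M23 in the methods), unstranded, and a read that overlaps more than 1 gene adds to each of them. A second deposited table, with log2 CPM, fold changes and p-values of the authors' own comparison, was not used. Genotypes came from the sample labels, which call the controls naive, read here as the miRNA-26b+/+ mice of the paper. Nothing in the labels says which mice share a litter, so p-values cover the spread between these 6 libraries. No pair of libraries agreed within sampling noise (smallest chi-square per degree of freedom 45.1 over 15 pairs).

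The filter required 2 counts in total and over 1 CPM in no fewer than 2 libraries. TMM factors were 0.982 to 1.015. The test was edgeR's quasi-likelihood F-test (edgeR 4.0.16, R 4.3.3; prior count 0.125) with Benjamini-Hochberg adjustment over all genes tested. CPM use TMM-scaled library sizes. A floor is 3 counts; it covers counting error only, since PCR copies could not be told from separate molecules. Alternatives were the normalization, DESeq2 1.42.0, limma voom (limma 3.58.1), the earlier quasi-likelihood method, the filter, the prior count and leaving out libraries. The procedure was tested on simulated counts.

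All 10 genes are named. From each list, genes with an unadjusted p-value under 0.05 were named, at most 6 by smallest p-value, and otherwise the 2 most abundant; the marker genes and the genes with 0 counts given beside them were chosen after their values were seen. Genes with the most similar pattern were named by Pearson correlation. Some genes that this rule names are not reported here. The members and lists were chosen with earlier results of these data known.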

Additional observations from a re-analysis of the deposited data

How the results depend on the processing

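No setting gave any of the 9 genes an adjusted p-value under 0.05. Of 137 values for a gene under an alternative, 129 kept their direction and 8 reversed, and none became a call after adjustment. The number called higher at an unadjusted p-value under 0.05, 4, was 2 with DESeq2, limma voom and the earlier quasi-likelihood method of edgeR (Cdh19 and Scn7a). It was also 2 without both M2627 and M2630 (Cdh19 and S100b). With no filter on few counts or with filterByExpr it was 3, without Sox10, and with 1 library left out it was 2 to 4. The 2 genes whose groups did not overlap became 3 to 5 with 1 library left out, 4 without both M2627 and M2630 and 6 without both M2626 and M2627, where fewer libraries make overlap rarer. These pairs of libraries were chosen after seeing the data. The reversed log2 fold changes were, for L1cam, -0.061 with limma voom and -0.26 without M2628 (range with 1 library left out -0.256 to 0.605). They were 0.15 without M2628 and 0.004 without M2631 for Ncam1 (range -0.129 to 0.147). For Pou3f1 they were -0.28 without M2630, -0.358 without M2631 (range -0.358 to 0.81) and -0.364 without both M2627 and M2630. For Sox10 the value was -0.093 without both M2626 and M2627. The cause of each was not tested. Over all genes, adjusted calls were 1, but 57 with DESeq2, 3 with limma voom, 0 with the earlier method and 82 without M2628. No paired analysis was possible because the labels carry no replicate numbers. Pou3f1 and Gfap had no count in 3 libraries each and 27 to 57 counts in the others.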
